A study of Mus musculus with 12 samples.

Results

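The cytosolic ribosomal protein genes were taken as the rows of the expression table whose mouse symbol is Rpl or Rps followed by a number, with an optional letter or l at the end, or is Rplp0, Rplp1, Rplp2 or Rpsa. Symbols with -ps, the Rps6k kinases and Rps19bp1 were left out. The rule used no measured value and gave 77 genes of the 15651 in the table, 47 for proteins of the large subunit and 30 for proteins of the small subunit. Rps12, Rps27, Rpl24, Rpl41, Rpl3l, Rpl10l and Rpl32l also carry such symbols and were not analysed here. Rps4l and Rpl6l have matching symbols but are annotated as processed pseudogenes, copies of an mRNA that were inserted into the genome.

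A ribosome joins a small subunit, which decodes the mRNA, to a large subunit, which forms the peptide bond, and each subunit holds a single copy of most of its proteins. The mRNAs of ribosomal proteins begin with a run of pyrimidines, the 5′ terminal oligopyrimidine or TOP motif, through which mTOR and the binding protein LARP1 control their translation, and growing blood cells hold large amounts of them. The MYC transcription factor is known to act on genes of ribosome production. Mutation of a single copy of some of these genes causes Diamond-Blackfan anemia, a failure of red cell production.

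RNA was sequenced from c-Kit+ spleen cells of moribund mice with acute myeloid leukemia (AML), 3 of genotype Dnmt3afl/fl,Flt3ITD/ITD,Mx1Cre (D/F) and 3 of genotype Tet2fl/fl,Flt3ITD/ITD,Mx1Cre (T/F). Both models therefore share the homozygous internal tandem duplication of the receptor Flt3 and an Mx1-Cre transgene, whose interferon-inducible promoter was not induced in these mice, so that deletion of the floxed alleles was spontaneous. Cells of each mouse were split between DMSO and CCS1477, an inhibitor of the bromodomains of the acetyltransferases p300 and CBP, at 4 µM in D/F and 2 µM in T/F, for 6 hours in medium with SCF (60 ng/ml), IL6 (20 ng/ml) and IL3 (20 ng/ml). The ages of these mice are not given in the sources used here, and T/F mice become moribund sooner than D/F mice, so age and genotype cannot be told apart. This gave 12 libraries in 4 groups of 3, and dose and genotype cannot be told apart where the responses of the models are compared.

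Values are in TPM, the abundance of a transcript per unit length relative to all transcripts of a library, so a change in the total RNA of a cell is not seen and the depth of a library is unknown. The libraries summed to between 914204 and 931697 TPM. With DMSO, Tet2 lay at 30.0 to 35.8 TPM in the T/F libraries, below the 38.3 to 43.4 TPM of the D/F libraries, whereas Dnmt3a did not separate the genotypes (29.3 to 55.7 TPM for D/F, 39.9 to 53.9 TPM for T/F). The myeloid blast genes Mpo (277 to 3673 TPM) and Kit (22.8 to 149 TPM) were expressed in every library, whereas the pan-leukocyte gene Ptprc was listed at only 0.826 to 3.11 TPM. The 7 neutrophil markers summed to between 1667 and 9406 TPM, and the 7 erythroid markers with a row to between 10.8 and 34.0 TPM. The 8 blast markers summed to 2907 to 8494 TPM with DMSO and 775 to 3774 TPM with CCS1477 in D/F (1 called lower, or 7 in a fit with each mouse as a block, which pairs its samples), and to 3428 to 5340 TPM and 1428 to 2581 TPM in T/F (6 called lower). The 5 monocyte markers with a row went from sums of 80.8 to 101 TPM to sums of 28.0 to 36.3 TPM in D/F (all 5 called lower) and from 108 to 146 TPM to 41.6 to 58.0 TPM in T/F (4 called lower). The 3 T and NK cell markers with a row went from sums of 118 to 171 TPM to sums of 17.6 to 34.2 TPM in D/F, and their T/F sums were 73.5 to 110 TPM with DMSO and 23.2 to 32.2 TPM with CCS1477 (1 called lower in each). The 3 mast cell and basophil markers with a row went from 77.5 to 178 TPM to 18.7 to 43.3 TPM in D/F (none called, 2 with the block), and were at 36.3 to 73.9 TPM and 18.1 to 37.5 TPM in T/F (2 called lower). The 2 B cell markers with a row went from 10.8 to 23.2 TPM to 4.13 to 9.54 TPM in D/F, and were at 16.8 to 20.5 TPM and 11.3 to 14.2 TPM in T/F, where both were called lower, and the 4 megakaryocyte markers were at 37.7 to 211 TPM and 26.4 to 70.7 TPM in D/F and at 51.7 to 58.9 TPM and 37.6 to 39.8 TPM in T/F. Over all genes 6.51% were called lower in D/F, 18.0% in D/F with the block and 17.6% in T/F. The part of these cell types in the differences below was not tested. D/F replicate 2 stood apart in both treatments, with less Mpo (1163 TPM, against 2646 and 3673 TPM in the other two D/F mice with DMSO) and more Kit (149 TPM, against 50.5 and 60.9 TPM), so D/F counts are also given without it. In bulk RNA, fewer cells of a type and less RNA per cell cannot be told apart.

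The ribosomal protein genes were among the most abundant transcripts of these cells. Their TPM summed to between 7.01% and 8.42% of a library, 71 of the 77 genes had a mean of at least 100 TPM and 34 a mean of at least 1000 TPM. On the TPM scale the highest means were those of Rps26 (3373 TPM), Rplp1 (3300 TPM), Rps2 (2425 TPM), Rplp0 (1876 TPM) and Rps24 (1799 TPM), and these 5 genes held 16.5% to 19.2% of the total of the group. Only Rps4l (7.12 TPM), Rpl6l (3.53 TPM) and Rpl39l (1.15 TPM) had a mean under 10 TPM. With DMSO the group held 7.76% ± 0.376 (SD, n = 3) of the library in D/F and 7.50% ± 0.277 in T/F, and with CCS1477 it held 7.85% ± 0.499 and 7.21% ± 0.217. In each T/F mouse the share was lower with CCS1477 than with DMSO (7.82% and 7.44%, 7.30% and 7.01%, 7.39% and 7.18% in replicates 1 to 3), whereas in D/F it was higher in replicate 1 (7.38% and 7.63%) and replicate 2 (8.14% and 8.42%) and lower in replicate 3 (7.77% and 7.50%). The T/F groups still overlapped. With the near copies described below, the group means were 10.15% and 10.28% for D/F, and 9.92% and 9.60% for T/F. The ratio of large subunit to small subunit TPM lay between 1.15 and 1.25 over all libraries. Within each of the 6 mice it was lower with CCS1477, at 0.969 to 0.991 of its value with DMSO, and with the near copies included it was lower in 5 of the 6, at 0.978 to 1.003 of its value with DMSO. With the rows of -ps symbols added instead, it was higher with CCS1477 in T/F replicate 2 (1.215 and 1.218) and replicate 3 (1.217 and 1.22). It was then lower in T/F replicate 1 and in every D/F mouse.

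**Figure D1:**
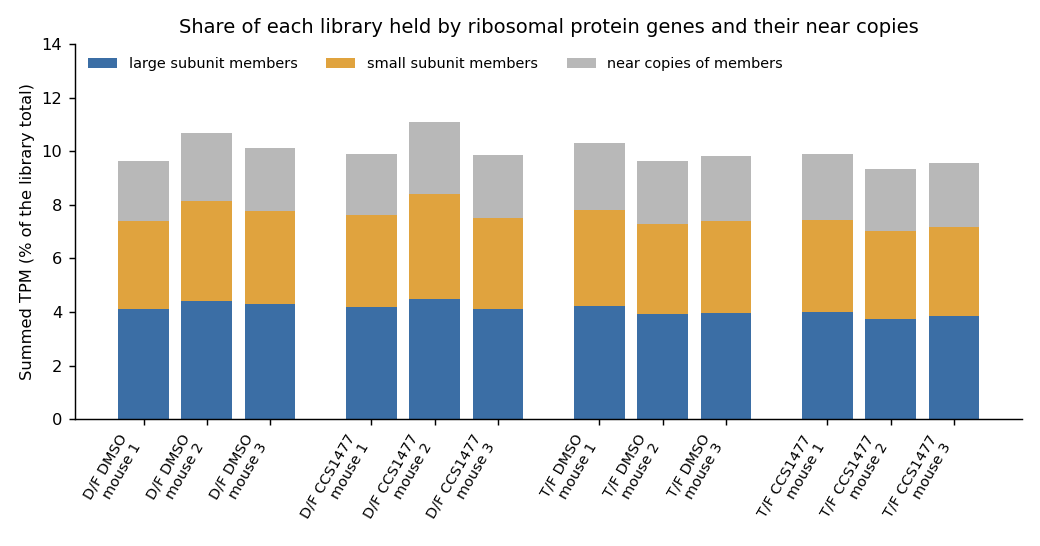
Bars give the summed TPM of large subunit members, small subunit members and their near copies as a percent of the library total (y axis) for each mouse and treatment (x axis). The members held 7.01% to 8.42% of a library, with the highest values in the libraries of D/F replicate 2, and the near copies added 2.26% to 2.69%.

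Ribosomal protein genes have many processed copies in the mouse genome, and short reads cannot always be assigned to the gene or to its copy. A coding sequence search of the table found 251 other rows whose transcript matched at least 80% of the coding sequence of a member at an identity of at least 90%, of which 242 are annotated as pseudogenes. Such near copies existed for 63 of the 77 genes. For 50 genes the copies held under 5% of the TPM of the family, that is of the gene and its copies together, but for 16 genes they held over 50%, and for 6 genes over 90%. Rpl12, a protein at the base of the stalk of the large subunit, is an example: its own row had a mean of 108 TPM, while the row of its copy Gm10275 (GRCm38 chr10:29698746-29699380, reverse strand) had 1844 TPM. The coding sequence of Rpl12 has 495 bases and the copy carries it with 0 differences. The first bases are shown, from 5′ to 3′, because they are the same string in both rows.
Rpl12: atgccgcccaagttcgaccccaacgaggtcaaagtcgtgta
Gm10275: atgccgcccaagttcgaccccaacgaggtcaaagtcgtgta
Rpl27a with Gm7536, Rpl10 with Rpl10-ps3, Rps6 with Rps6-ps4, Rpl15 with Rpl15-ps3 and Rps13 with Rps13-ps2 were further pairs with 0 differences over the coding sequence, and in each of them the row of the copy was the larger. The level of such a gene and the level of its copy are therefore uncertain each by itself. For the genes called below it is stated whether the family sum was called too, and for some of them its change is given.

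CCS1477 was compared with DMSO in each genotype to ask how the transcripts of the protein synthesis machinery respond to inhibition of the p300/CBP bromodomains. Genes that averaged 1 TPM or more in either treatment were tested by limma on log2(TPM + 1), p-values were adjusted over all of them by Benjamini-Hochberg, and the threshold for a call was an adjusted p of 0.05. Fold changes on this scale are understated for low genes.

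In D/F AML 1 ribosomal protein gene fell and none rose. The gene was Rpl27a, a component of the large subunit, at 125, 140 and 145 TPM in the 3 DMSO samples and 74.0, 87.2 and 78.2 TPM in the CCS1477 samples, so that the groups did not overlap. Its log2 fold change was -0.77 (SE 0.15, adjusted p = 0.0267 from limma). The copies of Rpl27a held 94.0% of its family TPM, and the family sum was not called in D/F. The 1 member called of 77 stood beside 6.51% of all 15501 genes called lower and 5.14% called higher. At an unadjusted p under 0.05 there were 8 members, against 30.4% of all genes. The groups stood apart for 14 members that were lower and 5 that were higher, against 16.7% and 19.9% of all genes. The median log2 fold change of the members was 0.00023, against 0.057 over all genes, with 38 of the 77 below 0 (45.2% of all genes). Its sign depended on the scaling, as rescaling each library to its median gene gave -0.048, quantile normalization -0.015 and rescaling to all other rows 0.0082. Under each of these scalings it stayed below the median of all genes, with differences of -0.056 to -0.083. With each mouse as a block, which pairs its DMSO and CCS1477 cells, 9 members were called lower and 5 higher, while 18.0% and 21.4% of all genes were. Those called lower under the block were Rpl12, Rpl27, Rpl27a, Rpl10a, Rpl36al, Rpl28, Rps13, Rps27l and Rpl21, and those called higher were Rps20, Rps2, Rplp0 and the low-level rows Rpl39l and Rps4l. Rpl39l averaged 0.885 TPM with DMSO and 1.83 TPM with CCS1477 in D/F, so it passed the 1 TPM filter only through its CCS1477 group. It also reached 2.00 TPM, as every row of the table does, only in CCS1477 libraries. Its call as higher therefore depends on these filters and carries no weight as a rise. Without D/F replicate 2, which stood apart, Rpl12, Rpl27 and Rpl27a were called lower and Rps20 higher, while 3739 genes were called in the whole table. Without replicate 1 or replicate 3 limma called no gene in the whole table. In each of these cases 1 member had an unadjusted p under 0.05, beside 2494 and 2330 of all genes.

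In T/F AML 11 of the 77 genes fell and none rose. Over all 15256 genes tested 17.6% were called lower and 25.8% higher, so the share of members that fell (14.3%) was near the background. At an unadjusted p under 0.05 there were 13 members, against 51.7% of all genes. Of the members 61 had a log2 fold change below 0, as had 42.8% of all genes. The median of the members was -0.084, against 0.075 over all genes and 0.031 over the 3850 genes that averaged 50 TPM or more. Under each scaling tried it stayed below that of all genes, with differences of -0.158 to -0.167. DMSO and CCS1477 groups stood apart for 27 members that were lower and 1 that was higher, against 22.6% and 33.5% of all genes. The 11 genes were Rpl12, Rpl27, Rpl34, Rpl27a, Rpl10a, Rpl5, Rpl36al, Rpl28, Rpl10, Rpl35 and Rps27l. Of these, 10 belonged to the large subunit, which has 47 of the members, and 1 to the small subunit, which has 30. Only 4 of the 11 stayed called when near copies were summed, as described below. With the mouse as a block the small subunit gene Rps13 joined the 11, which made 12 (block background 22.9% lower and 31.2% higher). Leaving out single mice gave 5 to 6 genes, while 3192 to 5122 genes were called in the whole table. Rpl12, Rpl27, Rpl34, Rpl27a and Rpl10a were called in all 3 of these fits. Most changes were small. The median absolute log2 fold change of the members was 0.10 in T/F and 0.092 in D/F, while over all genes that averaged 50 TPM or more it was 0.25 and 0.29.

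**Figure D2:**
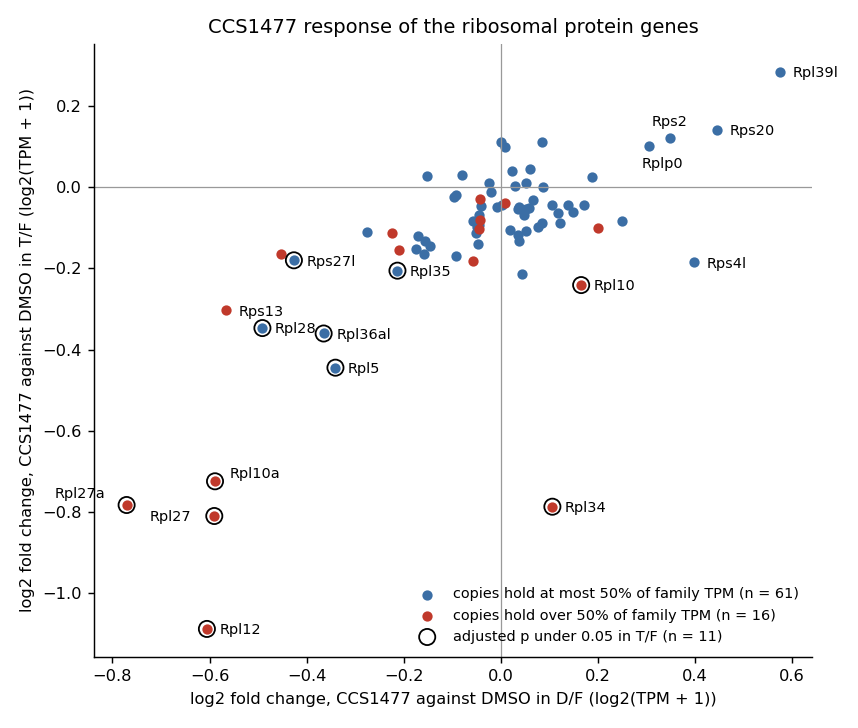
Each point is a ribosomal protein gene, with its log2 fold change (CCS1477 against DMSO, log2(TPM + 1)) in D/F on the x axis and in T/F on the y axis. Circles mark the 11 genes called in T/F and red points the 16 genes whose near copies hold over 50% of the TPM of the family. Rpl12, Rpl27, Rpl27a and Rpl10a lie far to the lower left and Rpl34 low on the right, while Rps20, Rps2 and Rplp0 lie at the upper right.

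Rpl12 had the largest fall in T/F. It was at 132, 136 and 155 TPM with DMSO and 72.3, 58.8 and 66.9 TPM with CCS1477, a log2 fold change of -1.09 (SE 0.11, adjusted p = 0.00103 from limma), and it was the only member called above 2-fold, at a background of 4.7% of all genes. In D/F it went from 129, 141 and 137 TPM to 75.2, 104 and 89.8 TPM, again without overlap, with a log2 fold change of -0.61 (SE 0.17, adjusted p = 0.0657 from limma, 0.0179 with the mouse as a block). The row of its copy Gm10275 was not lower with CCS1477, at 1780, 1653 and 1671 TPM with DMSO and 1907, 1755 and 1855 TPM with CCS1477 in T/F. The family sum changed by 0.051 on the log2 scale in T/F and by 0.22 in D/F (adjusted p = 0.561 and 0.344 from limma).

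In T/F, Rpl27, Rpl27a and Rpl10a showed the same division between the row of the gene and the family. Rpl27, a large subunit protein and Diamond-Blackfan gene, was at 124, 101 and 132 TPM with DMSO and 69.1, 68.7 and 63.3 TPM with CCS1477 in T/F (log2 fold change -0.81, SE 0.11). Rpl27a in T/F went from 138, 130 and 147 TPM to 77.5, 71.8 and 92.1 TPM (log2 fold change -0.78, SE 0.11). Rpl10a, which forms the stalk on the other side of the large subunit, went from 249, 238 and 259 TPM to 158, 137 and 156 TPM (log2 fold change -0.72, SE 0.080). In none of the 3 did the T/F groups overlap. Their copies held 92.7%, 94.0% and 78.6% of the family TPM. The T/F family sums changed by -0.19, -0.058 and -0.015 on the log2 scale, and none of these changes was called (adjusted p = 0.0777, 0.53 and 0.885 from limma). In D/F the division was less clear. The copy Rpl27-ps3 went from 1059, 1014 and 1001 TPM to 714, 920 and 783 TPM there, without overlap. Rpl10a-ps1 went from 833, 863 and 851 TPM to 774, 851 and 739 TPM in D/F, lower in each mouse but with overlapping groups. The D/F family sums of these genes were not called, with or without the block.

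Taking all members by the share of their copies, the calls divided as follows. Of the 16 genes whose copies held over 50% of the family TPM, 6 were called lower in T/F (median log2 fold change -0.17), and of the other 61 genes 5 were (median -0.061). Over all genes 17.6% were called lower in T/F. When each gene was summed with its near copies, 4 of the 77 families were called lower in T/F and 0 in D/F (3 at an unadjusted p under 0.05 in D/F), and the T/F median was -0.061. Under the block the T/F count stayed at 4, whereas in D/F 4 families were called lower (Rpl5, Rpl28, Rpl36al and Rps27l) and 5 higher (Rps20, Rps2, Rplp0, Rpl39l and Rps4l). The limit given above for Rpl39l holds here too. Over all genes by their own rows, 6.51% were called lower in D/F without the block. With the block 22.9% were called lower in T/F, and in D/F 18.0% lower and 21.4% higher. The 4 families called in T/F were Rpl5, Rpl36al, Rpl35 and Rps27l, all of which were also called by their own row. Rpl12, Rpl27, Rpl27a, Rpl10a, Rpl10, Rpl34 and Rpl28 were called in T/F only by their own row. For Rpl28, whose copies held 15.2% of the family TPM, the family sum still went from 240, 206 and 252 TPM to 195, 194 and 194 TPM in T/F, without overlap (log2 fold change -0.25, SE 0.089, adjusted p = 0.0626 from limma).

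**Figure D3:**
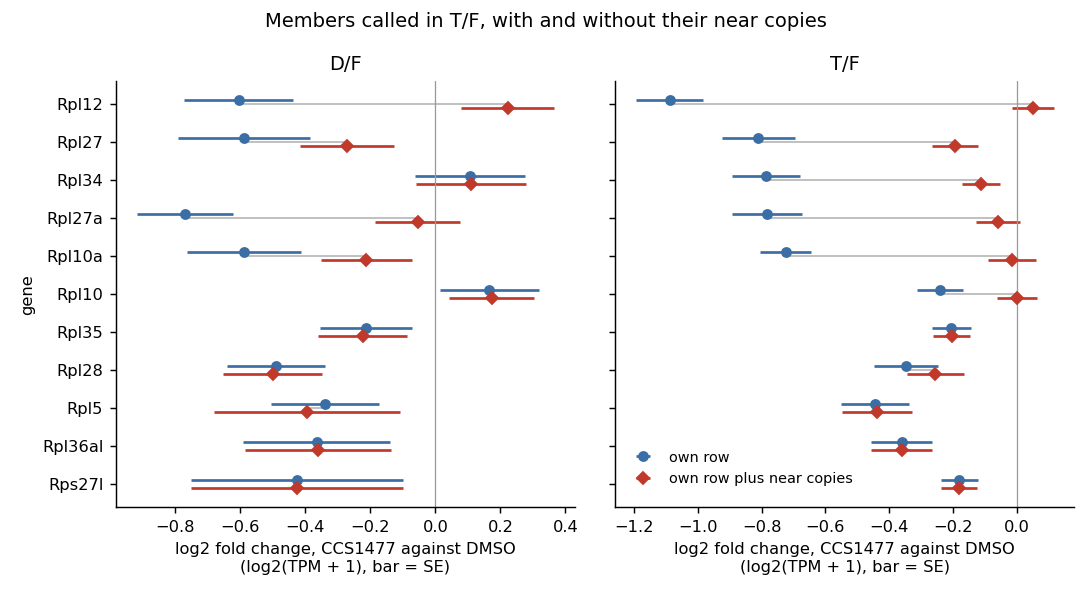
Points give the log2 fold change with CCS1477 (x axis, log2(TPM + 1), bars are the standard error) of the 11 genes called in T/F (y axis), in D/F (left) and T/F (right), for the row of the gene (circles) and for the gene summed with its near copies (diamonds). In T/F the diamonds of Rpl12, Rpl27, Rpl34, Rpl27a, Rpl10a and Rpl10 lie between -0.19 and 0.051 and that of Rpl28 at -0.25, while those of Rpl5, Rpl36al, Rpl35 and Rps27l lie with the circles.

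Rpl5 was the member with the largest fall among those whose family fell too. Together with Rpl11 and the 5S ribosomal RNA it forms the 5S ribonucleoprotein, which also binds MDM2 and so tells the p53 pathway of disturbed ribosome assembly. Rpl5 was at 127, 126 and 141 TPM with DMSO and 89.4, 90.1 and 111 TPM with CCS1477 in T/F, without overlap (log2 fold change -0.44, SE 0.11, adjusted p = 0.0193 from limma). In D/F it was at 127, 138 and 116 TPM and 88.5, 116 and 97.0 TPM, where the groups also stayed apart, by less than 1 TPM (log2 fold change -0.34, SE 0.17, adjusted p = 0.225 from limma). It was lower in all 6 mice. Its partner Rpl11 was at 757 to 925 TPM in all T/F samples and 747 to 865 TPM in all D/F samples, with overlapping groups and log2 fold changes of -0.082 and -0.058.

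Rpl35 and Rpl28, named here after their values were seen, fell in T/F by smaller amounts. Rpl35, at the rim of the tunnel through which the new chain leaves, went from 1155, 1096 and 1066 TPM to 975, 952 and 948 TPM (log2 fold change -0.21, SE 0.061). Rpl28, which is present in animals and absent from yeast, went from 216, 180 and 222 TPM to 159, 155 and 170 TPM (log2 fold change -0.35, SE 0.10). In D/F these genes had log2 fold changes of -0.21 and -0.49, neither of them called without the block (adjusted p = 0.359 and 0.0844 from limma). With the mouse as a block Rpl28 was called (adjusted p = 0.0363) and Rpl35 was not (0.151). Their groups did not overlap there either. Of the 8 proteins at the rim of the tunnel only Rpl35 was called in T/F, and of the 13 measured proteins of the head of the small subunit 0 were, with 1 at an unadjusted p under 0.05. Over all genes 17.6% were called lower and 25.8% higher in T/F, and 51.7% had an unadjusted p under 0.05. Of the 19 Diamond-Blackfan genes measured 3 fell, namely Rpl5, Rpl27 and Rpl35, 0 rose and 16 were not called, with a median log2 fold change of -0.081. These 3 of 19 stood beside 17.6% of all genes called lower and 25.8% called higher, and for Rpl27 the family sum was not called. Rps19, the gene most often mutated in that anemia, was at 1071 to 1115 TPM with DMSO and 1040 to 1064 TPM with CCS1477 in T/F, which were narrowly apart, and at 1005, 1254 and 1117 TPM and 1118, 1322 and 1026 TPM in D/F, where its groups overlapped. Rps14, whose loss is part of the human 5q deletion syndrome, had log2 fold changes of -0.12 in T/F and 0.036 in D/F, neither called.

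At the other end stood Rplp0, Rps2 and Rps20, the only members that were higher in all 6 mice, as were 32.3% of all genes. A further 22 members were lower in all 6 mice (24.5% of all genes), 7 were higher in all D/F mice and lower in all T/F mice (0.712%), and 1 was the reverse (1.36%). Rplp0 carries the P1 and P2 proteins of the stalk that recruits elongation factors. It was at 1652, 1773 and 1714 TPM with DMSO and 2091, 2191 and 2072 TPM with CCS1477 in D/F, without overlap (log2 fold change 0.31, SE 0.13, adjusted p = 0.179 from limma and 0.0491 with the mouse as a block). Rps2, at the mRNA entry of the small subunit, was at 2308, 1932 and 2339 TPM and 2897, 2639 and 2817 TPM (log2 fold change 0.35, SE 0.15, adjusted p = 0.176 from limma and 0.0437 with the mouse as a block). Rps20, in the head of the small subunit, was at 603, 829 and 680 TPM and 917, 1038 and 904 TPM (log2 fold change 0.45, SE 0.17, adjusted p = 0.143 from limma and 0.0318 with the mouse as a block). These 3 genes had few or no near copies by TPM, at most 2.57% of the family. In T/F their log2 fold changes were 0.10, 0.12 and 0.14, and none was called with or without the block. The stalk proteins Rplp1 and Rplp2 were not called in either genotype, with or without the block. Rplp1 was at 2956 to 3782 TPM with DMSO and 3196 to 3511 TPM with CCS1477 over both genotypes, and the log2 fold change of Rplp2 was 0.076 in D/F AML, and -0.10 in T/F AML.

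Among members above 10 TPM, Rpl36a (0.11) and Rpl7a (0.11) had the next highest log2 fold changes in T/F after Rps20 and Rps2, with overlapping groups, and neither was called. Rpsa, the laminin receptor protein of the small subunit, was at 1556 to 1776 TPM in all 12 libraries, and its log2 fold changes were 0.0027 (D/F) and -0.043 (T/F). Rps6, the substrate of the S6 kinases, had log2 fold changes of -0.22 and -0.11, but its own row held a mean of 246 TPM against 2108 TPM for Rps6-ps4. Rpl22, deleted or mutated in some leukemias, was lower in all 6 mice, at 361 to 423 TPM with DMSO and 333 to 360 TPM with CCS1477 in T/F, which were apart by less than 1 TPM, and was not called (log2 fold change -0.16, SE 0.081, adjusted p = 0.156 from limma).

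Some ribosomal proteins have a second gene for a closely related protein. Rpl36al, the partner of Rpl36a, was called lower in T/F, from 496, 463 and 435 TPM to 399, 359 and 330 TPM (log2 fold change -0.36, SE 0.10, adjusted p = 0.0268 from limma). In D/F it was at 454, 347 and 458 TPM and 361, 246 and 380 TPM, lower in every mouse but with overlapping groups (log2 fold change -0.36, adjusted p = 0.329 from limma and 0.0437 with the mouse as a block). Rpl36a itself changed by 0.00023 on the log2 scale in D/F AML, and by 0.11 in T/F AML. Rps27l, a p53 target that is related to Rps27, went from 452, 470 and 445 TPM to 398, 401 and 407 TPM in T/F (log2 fold change -0.18, SE 0.057, adjusted p = 0.0469 from limma). In D/F it went from 442, 303 and 510 TPM to 357, 199 and 396 TPM, lower in every mouse but with overlapping groups. Its log2 fold change there was -0.43 (SE 0.33, adjusted p = 0.425 from limma and 0.038 with the mouse as a block). Rpl39l, known from male germ cells, stayed between 0 and 2.39 TPM in all libraries, against 808 to 1187 TPM for its partner Rpl39. Rps4x, the partner of the pseudogene Rps4l, was at 1349 to 1763 TPM and was not called in either genotype.

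A further 5 genes were listed with the ribosomal proteins under other symbols, Rps3a1, Fau, Rack1, Rpl22l1 and Rpl7l1. Without the block only Rpl7l1 was called, in T/F, where 17.6% of all genes were called lower and 25.8% higher. This relative of Rpl7 went from 88.6, 83.9 and 88.5 TPM to 63.9, 64.5 and 63.5 TPM in T/F (log2 fold change -0.44, SE 0.057, adjusted p = 0.00247 from limma), and from 78.6, 74.8 and 92.7 TPM to 58.8, 54.3 and 67.7 TPM in D/F (log2 fold change -0.44, adjusted p = 0.133 from limma and 0.0215 with the mouse as a block). Rpl22l1, the paralog of Rpl22, was at 145, 129 and 136 TPM with DMSO and 192, 176 and 166 TPM with CCS1477 in D/F (log2 fold change 0.38, adjusted p = 0.134 from limma and 0.0355 with the mouse as a block), and had a log2 fold change of -0.053 in T/F. The other 3 lay between -0.084 and 0.12 in both genotypes.

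DMSO samples of the genotypes were compared to ask how the ribosomal protein genes of Dnmt3a-floxed and Tet2-floxed leukemias differ. Of 76 members tested 1 was called lower in T/F and none higher, beside 0.0197% and 0.0131% of 15265 genes, while 3 members and 6.15% of all genes had an unadjusted p under 0.05. The gene was Rpl34, a protein of the large subunit (ENSMUSG00000062006, chr3:130726831-130730398, reverse strand). Rpl34 was at 952, 1184 and 985 TPM in D/F and 57.3, 47.2 and 61.4 TPM in T/F with DMSO, a log2 difference of -4.21 (SE 0.16, adjusted p = 0.000837 from limma). With CCS1477 it was at 1056, 1281 and 1025 TPM in D/F and 31.1, 31.0 and 32.2 TPM in T/F. Every D/F library was far above every T/F library, the log2 difference with CCS1477 was -5.10 (SE 0.12, adjusted p = 9.59e-05 from limma), and Rpl34 was called in DMSO with any mouse left out.

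The processed pseudogene Rpl34-ps1 (chr6:71124610-71124963, forward strand) had the opposite pattern. It was at 2.93, 3.41 and 2.26 TPM in D/F and 1193, 1152 and 1148 TPM in T/F with DMSO, and at 2.40, 6.40 and 5.09 TPM and 1095, 1057 and 1139 TPM with CCS1477. The family sum was 960, 1192 and 989 TPM in D/F and 1262, 1209 and 1218 TPM in T/F with DMSO, a log2 difference of 0.24 (SE 0.13, adjusted p = 0.903 from limma). The coding sequence of Rpl34 has 351 bases, and Rpl34-ps1 differs from it at 2 of them, T132C and C318G, with the base of the gene first and positions counted from the A of the start codon. Both stretches are shown because reads over these bases are what tells the rows apart within the coding sequence, and capitals mark the differing base.
Rpl34, first stretch: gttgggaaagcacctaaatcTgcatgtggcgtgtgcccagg
Rpl34-ps1, first stretch: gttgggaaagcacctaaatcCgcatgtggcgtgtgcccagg
Rpl34, next stretch: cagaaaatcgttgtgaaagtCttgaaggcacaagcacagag
Rpl34-ps1, next stretch: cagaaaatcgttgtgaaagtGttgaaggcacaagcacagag
Rpl34 lies 2.73 Mb from Tet2 (chr3:133463679-133545139), a gene whose alleles differ between the genotypes. The part of this position, and of the alleles the mice carry at either locus, in the difference was not tested. The fall of Rpl34 with CCS1477 in T/F (log2 fold change -0.79, SE 0.11, adjusted p = 0.00274 from limma) took place in the row that held under 62 TPM there.

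Rpl3, which lies near the peptidyl transferase centre, differed between mice of the same genotype in a like manner. It was at 1317 TPM with DMSO and 1354 TPM with CCS1477 in D/F replicate 1, and between 574 and 668 TPM in the other 10 libraries. Rpl3-ps1 (chrX:13202571-13203780) was at 0 TPM in both libraries of D/F replicate 1 and between 550 and 617 TPM elsewhere. The family sums were alike, at 1317 and 1354 TPM in that mouse and 1151 to 1285 TPM in the others. The coding sequences, of 1209 bases, differ at 2 of them, C57A and T786C, which are shown with capitals as above.
Rpl3, first stretch: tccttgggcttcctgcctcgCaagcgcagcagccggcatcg
Rpl3-ps1, first stretch: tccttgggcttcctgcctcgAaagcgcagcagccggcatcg
Rpl3, next stretch: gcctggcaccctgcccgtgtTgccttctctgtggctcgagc
Rpl3-ps1, next stretch: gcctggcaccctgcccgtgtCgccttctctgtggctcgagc
The genotype difference of Rpl3 was -0.37 on the log2 scale and was not called.

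**Figure D4:**
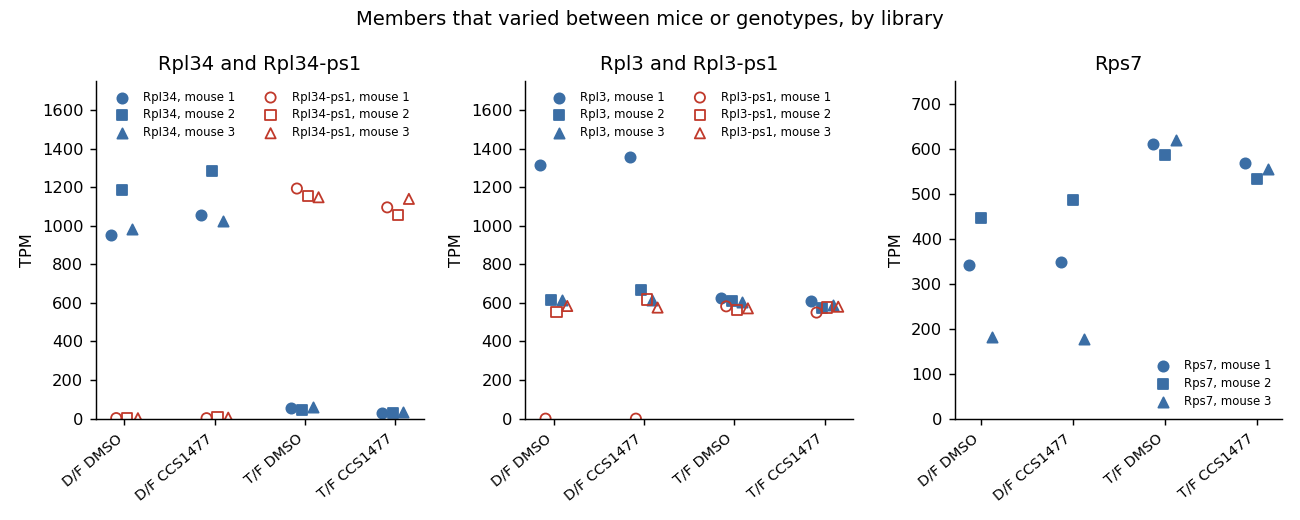
TPM (y axis) in each library by genotype and treatment (x axis), with a symbol for each mouse. Filled symbols give Rpl34, Rpl3 and Rps7, and open symbols give the processed pseudogenes Rpl34-ps1 and Rpl3-ps1. Rpl34 and Rpl34-ps1 exchange places between D/F and T/F, Rpl3 stands at 1317 and 1354 TPM in 1 D/F mouse only, and Rps7 lies between 178 and 486 TPM in D/F and between 533 and 619 TPM in T/F.

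Rps7, a small subunit protein and Diamond-Blackfan gene (chr12:28630854-28635953, reverse strand), varied widely among the D/F mice. It was at 342, 446 and 182 TPM with DMSO in D/F and at 348, 486 and 178 TPM with CCS1477, so that each mouse kept its level. In T/F it was at 610, 585 and 619 TPM and 568, 533 and 555 TPM. The log2 difference between the genotypes with DMSO was 0.99 (SE 0.32, adjusted p = 0.686 from limma), and the groups did not overlap. Near copies held only 2.56% of the family TPM. It lies on the same chromosome as Dnmt3a, 24.7 Mb away. Rps4l was at 16.0, 7.57 and 7.32 TPM in D/F and 1.61, 3.17 and 1.59 TPM in T/F with DMSO (log2 difference -1.81, SE 0.34, adjusted p = 0.374 from limma). Altogether 1 member was higher and 5 were lower in T/F without overlap, against 5.17% and 7.42% of all genes, and the median log2 difference of the members was -0.034, against -0.039 over all genes, with 42 members (57.8% of all genes) below 0. Rps24 was at 1714, 2379 and 1947 TPM in D/F and 1778, 1581 and 1631 TPM in T/F, with overlapping groups (log2 difference -0.26). Rps13 (0.57), Rpl27 (0.21) and Rpl10 (0.16) had the largest log2 differences upward in T/F after Rps7, and none was called.

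The responses of the genotypes were compared within a fit of the 4 groups. None of the 77 members and none of the 15583 genes tested (0.0%) was called by limma, while 4 members and 4.23% of all genes had an unadjusted p under 0.05. The median of the members was -0.058 on the log2 scale (T/F response minus D/F response), against 0.018 over all genes, and 53 members lay below 0, as did 46.8% of all genes. The differences furthest below 0 were those of Rpl34 (-0.89, SE 0.19, adjusted p = 0.768 from limma), Rps4l (-0.58, SE 0.57) and Rpl12 (-0.48, SE 0.19). For Rps20, Rps2 and Rplp0 the difference was -0.30, -0.23 and -0.21, with adjusted p above the threshold and standard errors between 0.12 and 0.18.

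Genes that serve the ribosomal proteins had lower medians than the ribosomal protein genes themselves. The list of 16 dedicated chaperones of new ribosomal proteins and factors of the last steps of the large subunit held 7 genes that fell in D/F and 13 in T/F, and 0 that rose, beside 6.51% (D/F) and 17.6% (T/F) of all genes called lower, and 5.14% and 25.8% called higher, with medians of -0.74 and -0.64 on the log2 scale. Grwd1, the chaperone of Rpl3, went from 44.5, 41.2 and 51.5 TPM to 11.4, 11.7 and 12.1 TPM in T/F (log2 fold change -1.87, SE 0.095, adjusted p = 0.000334 from limma) and had a log2 fold change of -1.92 in D/F (adjusted p = 0.0121 from limma). Rrs1, which with Rpf2 brings the 5S ribonucleoprotein of Rpl5 and Rpl11 to the early large subunit, went from 44.1, 44.8 and 44.8 TPM to 13.0, 11.5 and 13.5 TPM in T/F (log2 fold change -1.74) and its D/F log2 fold change was -1.86, called in both. Rpf2 itself was at 4.46 to 4.96 TPM with DMSO and 1.41 to 1.97 TPM with CCS1477 in T/F (log2 fold change -1.10, called) and had a log2 fold change of -0.92 in D/F (adjusted p = 0.0613 from limma and 0.0139 with the mouse as a block). With the mouse as a block the list held 12 genes called lower for D/F, and 15 for T/F, beside 18.0% and 22.9% of all genes.

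**Figure D5:**
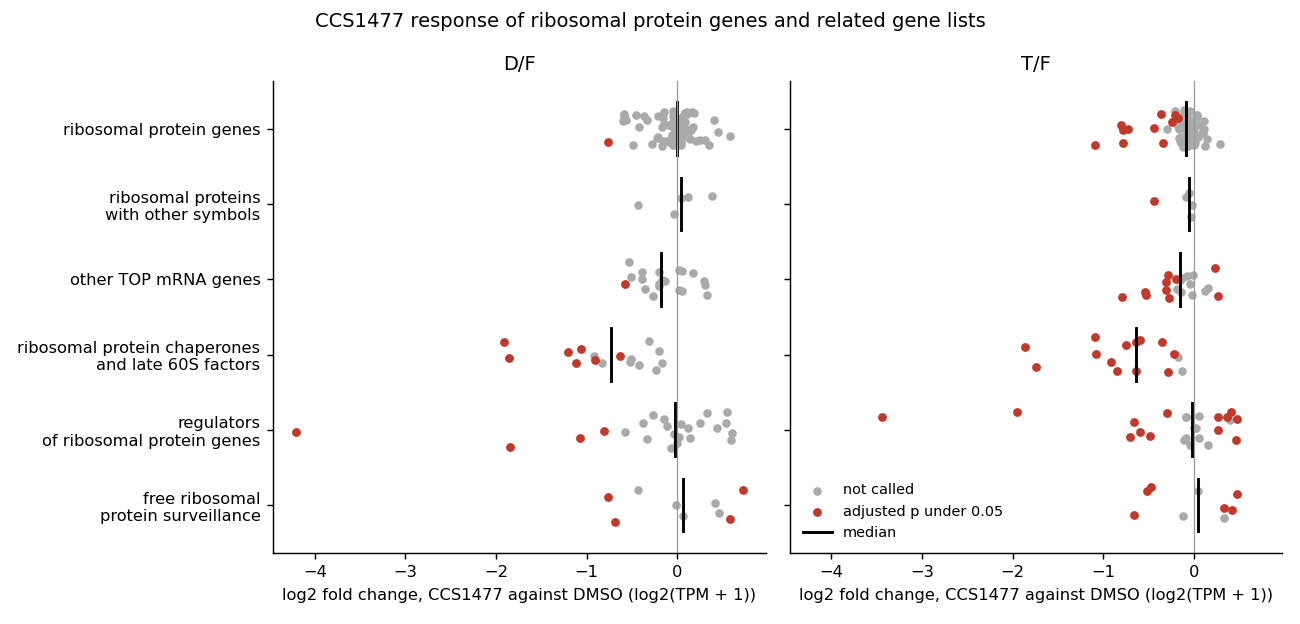
Points give the log2 fold change with CCS1477 (x axis, log2(TPM + 1)) of each gene in D/F (left) and T/F (right), by list (y axis). Red points have an adjusted p under 0.05 and black bars are medians. The ribosomal protein genes gather around medians of 0.00023 and -0.084, while the chaperones and late assembly factors have medians of -0.74 and -0.64.

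The list of other genes whose mRNAs carry a TOP motif held mostly translation factors. Of 20 genes, 1 fell and 0 rose in D/F, beside 6.51% and 5.14% of all genes, and 5 fell and 0 rose with the mouse as a block, beside 18.0% and 21.4%. In T/F 8 of the 20 fell and 2 rose, beside 17.6% and 25.8% of all genes. The medians were -0.19 and -0.15 on the log2 scale, against 0.057 and 0.075 over all genes. The snoRNA host Gas5 went from 538, 542 and 556 TPM to 333, 260 and 359 TPM in T/F (log2 fold change -0.79, SE 0.13). The initiation factor Eif4b went from 292, 284 and 289 TPM to 196, 199 and 198 TPM (log2 fold change -0.54), and from 278, 272 and 291 TPM to 194, 181 and 190 TPM in D/F (log2 fold change -0.57), called in both. Eef1g, a subunit of the elongation factor exchange complex, had log2 fold changes of -0.53 in T/F, called, and -0.39 in D/F (adjusted p = 0.121 from limma, 0.0305 under the mouse block). The 2 that rose in T/F, named here after their values were seen, were the elongation factor Eef1a1 (0.26) and Tpt1 (0.23).

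Among 24 regulators of ribosomal protein genes and of their translation, 4 fell and 0 rose in D/F (6 and 4 with the mouse as a block), and 7 fell and 6 rose in T/F. Over all genes 6.51% fell and 5.14% rose in D/F (18.0% and 21.4% with the block), and 17.6% and 25.8% in T/F, so that the share of regulators that rose in T/F was near that of all genes. Myc went from 300.3, 468 and 367 TPM to 20.7, 17.8 and 19.0 TPM in D/F (log2 fold change -4.21). In T/F Myc was at 265, 229.5 and 311 TPM with DMSO and 24.9, 19.3 and 27.1 TPM with CCS1477 (log2 fold change -3.45). Mycn had log2 fold changes of -1.84 and -1.96, and Larp1, which binds the TOP motif, of -1.07 and -0.71, all called. Of the 9 genes that sense or remove free ribosomal proteins, 2 fell and 2 rose in D/F and 3 of each did in T/F, beside the same shares of all genes. Trp53 fell by 0.77 and 0.52 on the log2 scale, and Nufip1, an autophagy receptor for ribosomes, by 0.69 and 0.66. Ube2o, a ligase that clears unassembled ribosomal proteins, rose by 0.73 and 0.48.

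The promoters were read from RefSeq sequences of GRCm38.p6, from 250 bases before to 50 after each annotated start, which were at hand for 55 of the 77 genes. The word CTTTCC, as in a TOP motif, stood on the sense strand between 20 bases before and 30 after the start in 11 of the 55 (20.0%), against 2.83% of 27025 symbols in the same table. The ETS core CCGGAAG was found on either strand in 24 of 55 (43.6%, against 9.93%), the word TCTCGCGA in 10 of 55 (18.2%, against 1.13%) and the E-box CACGTG in 6 of 55 (10.9%, against 8.09%). TATAAA stood in the last 50 bases before the start in 0 of 55, against 3.15%. The windows from 130 bases before to 20 after the start are shown for Rpl35 and Rpl12, whose own rows fell in T/F. For Rpl12 the family sum did not fall there, as given above. That of Rps2, which was higher in all 6 mice, is shown as well. Capitals mark these words as counted above, CTTTCC and TATAAA on the sense strand in their stretches and the others on either strand.
Rpl35 (chr2:39005112-39005261, reverse strand): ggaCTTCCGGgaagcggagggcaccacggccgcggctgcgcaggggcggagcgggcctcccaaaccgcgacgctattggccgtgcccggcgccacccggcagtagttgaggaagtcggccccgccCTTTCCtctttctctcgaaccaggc
Rpl12 (chr2:32961582-32961731, forward strand): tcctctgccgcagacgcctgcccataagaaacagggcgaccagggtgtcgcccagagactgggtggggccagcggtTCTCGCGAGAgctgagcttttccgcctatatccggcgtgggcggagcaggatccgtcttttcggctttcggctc
Rps2 (chr17:24719933-24720082, forward strand): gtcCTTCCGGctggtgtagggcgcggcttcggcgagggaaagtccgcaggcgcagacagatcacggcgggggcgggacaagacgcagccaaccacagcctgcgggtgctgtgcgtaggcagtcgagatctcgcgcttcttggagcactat
These matches describe the letters of the windows and are not sites of binding.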

How the data were processed

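RNA of c-Kit+ splenocytes was sequenced in 12 libraries (3 mice of each of 2 genotypes, DMSO and CCS1477). The processed values are TPM per Ensembl gene, made by the authors with kallisto on mm10 as their processing notes say, and by AltAnalyze as the paper's methods say. The annotation and settings are not given in the sources used here. No library was pooled. Every row reaches 2.00 TPM in some library, so rows under that value are absent. Columns were matched to samples by library name.

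Symbols came from the GENCODE vM21 tables by Ensembl identifier for 15252 rows. limma 3.58.1 (R 4.3.3) was fitted to log2(TPM + 1) of genes that averaged 1 TPM or more in a group compared, with eBayes without trend, two-sided p and Benjamini-Hochberg adjustment over the table, within each genotype, between genotypes in DMSO, and over 4 groups for the difference of responses. An exact permutation test of 3 against 3 cannot go below 0.1. Near copies were found with blastn 2.17.0 (plus strand, identity of at least 90% over at least 80% of the principal coding sequence). The unblocked fits were tested on simulated data with independent noise in each library and no shared effect of a mouse. That simulation did not test the pairing of samples.

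Same-numbered samples come from 1 mouse by the labels. Their deviations from the group means correlated at 0.527, 0.655 and 0.531 (D/F) and at 0.367, 0.34 and 0.478 (T/F), so the numbers pair the samples. Values come from the unblocked fit, with the blocked value beside a result where it changes a call. Among replicates no libraries were identical.

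Members named were fixed functional ones and paralogs, the 4 largest rises and 4 largest falls in each comparison among members that averaged 10 TPM or more in 1 of the groups, those called above 2-fold, and up to 3 called genes of each related list. The members and lists were chosen with earlier results of these data known. The H3K27ac ChIP-seq of the study and 1 gene of the ribosomal proteins with other symbols are not reported here.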

Additional observations from a re-analysis of the deposited data

Results flagged for a closer look

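Among the ribosomal protein genes named, Rpl34 and Rps4l were flagged because their responses lay on opposite sides of 0 in the 2 genotypes. They were not the only ones. Other named members did so by smaller differences, such as Rpl10 (log2 fold change 0.17 in D/F and -0.24 in T/F) and Rplp2 (0.076 and -0.10). Rpl34 was higher with CCS1477 in all 3 D/F mice (log2 ratios of 0.15, 0.11 and 0.06) and lower in all 3 T/F mice (-0.86, -0.59 and -0.91). The difference of -0.89 was tested in limma's fit of the 4 groups and was not called (adjusted p = 0.768), and the T/F values are those of a row at 31.0 to 61.4 TPM beside Rpl34-ps1 at 1057 to 1193 TPM. Rps4l was higher in all 3 D/F mice (0.53, 0.22 and 0.45) and lower in all 3 T/F mice (-0.06, -0.15 and -0.35), a difference of -0.58 that was not called either (adjusted p = 1.0 from limma), and its T/F values stayed at or under 3.17 TPM. Of the 77 members 7 were higher in all D/F mice and lower in all T/F mice, against 0.712% of all genes, and 1 showed the reverse, against 1.36%.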

How the results depend on the processing

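No TPM value carries a depth, so precision rests on 3 mice a group. In D/F, members called lower were 1 in the fit as reported, 9 with the replicate block, 6 in a joint fit of the 4 groups, 4 with an eBayes trend, 3 after rescaling to the median gene, 2 with a filter at 5 TPM, 0 above 2-fold or at an adjusted p under 0.01, 0 with near copies summed and 4 with near copies and the block, and 0 to 3 with a mouse left out. Members called higher in D/F were 0, but 5 with the block, with or without near copies, 3 in the joint fit and 0 to 1 with a mouse left out. The 5 include Rpl39l, which passed the filter only through its CCS1477 group. In T/F, members called lower were 11, but 6 in the joint fit, 7 with -ps rows added, 4 with near copies, with or without the block, 1 above 2-fold, 5 at an adjusted p under 0.01 and 5 to 6 with a mouse left out; none was called higher under any of these. Adding -ps rows or near copies left 0 calls between the genotypes. Rescaling to the median gene moved the member medians to -0.048 in D/F, -0.16 in T/F and -0.096 for the difference of responses, with the median of all genes in T/F at 0.0047 instead of 0.075, and quantile normalization gave -0.10, near copies -0.061 and -ps rows -0.061 in T/F. Without the 5 highest members the share of the library was 6.38%, 6.39%, 6.19% and 5.86% in D/F DMSO, D/F CCS1477, T/F DMSO and T/F CCS1477, and with -ps rows 9.01%, 9.10%, 8.80% and 8.52%. The ratio of large to small subunit TPM without them was 1.40, 1.36, 1.32 and 1.29, and with -ps rows 1.23 and 1.22 in T/F. Reversed were Rpl34 between genotypes (0.24 with near copies and 0.24 with -ps rows) and, in T/F, Rpl12 (0.051 with near copies, with or without the block), Rpl10 (4.15e-05 with near copies, with or without the block, and with -ps rows) and Rpl27 (0.020 with -ps rows). Of the other results for named members, 30 lost and 35 gained a call and 1316 kept direction and call or stayed uncalled. The fit with the 5 listed genes of other symbols, no filter, a pseudocount of 0.1 and scaling by non-member rows changed no count of members by over 1.5 times, and the replicate block left 0 calls for the difference of responses. Near copies were added after seeing the data.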

Other observations

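A copy of Rpl5 was seen in the libraries of a single mouse. Gm15500, a transcribed processed pseudogene on chr7:114705217-114706235 whose sequence matches the coding sequence of Rpl5 with 0 differences, was at 99.98 TPM with DMSO and 62.9 TPM with CCS1477 in D/F replicate 3, at 2.63 TPM in T/F replicate 3 with DMSO, and at or near 0 in the other libraries. The row of Rpl5 in that mouse, at 116 and 97.0 TPM, lay within the range of the other D/F mice, so that the family sum of Rpl5 with DMSO was 218 TPM there and 133 and 143 TPM in the other two D/F mice. Rps13, a small subunit protein whose copies hold 94.0% of the family TPM, also kept differences between mice, at 62.1, 56.5 and 117 TPM with DMSO and 53.3, 34.6 and 67.3 TPM with CCS1477 in D/F. Across members, deviations from the group mean correlated between the treatments of the same mouse at 0.848, 0.87 and 0.878 (D/F) and at 0.801, 0.48 and 0.724 (T/F), as a description over 77 genes that share libraries.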
